A study of Mus musculus with 12 samples.

Results

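This account follows 10 genes of the Wnt pathway through primary chondrocytes, the cells that build cartilage matrix, taken from the mouse: the ligands Wnt5a, Wnt5b, Wnt9a and Wnt10b, the secreted regulators Frzb, Sfrp1, Sfrp2, Dkk3 and Wif1, and Axin2, which is neither a ligand nor secreted but an intracellular feedback inhibitor. They were taken by symbol, through their Ensembl IDs, from tables of 57010 gene IDs. All 10 passed the filter on low counts, as did 14253 IDs in all.

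Wnt proteins are secreted, lipid-modified signals that bind Frizzled receptors. With the co-receptors LRP5 and LRP6 they stabilise beta-catenin, which enters the nucleus with TCF/LEF factors and switches on target genes, Axin2 among them. Other Wnts, WNT5A above all, act mainly through ROR and RYK receptors without beta-catenin. Secreted frizzled-related proteins (SFRP1, SFRP2 and FRZB) and WIF1 bind Wnt proteins outside the cell. In cartilage, Wnt signalling shapes joint formation and chondrocyte maturation, and FRZB in particular has been studied in osteoarthritis.

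The 12 libraries form 3 groups of 4, named as the labels name their treatments: Control, WT (cells transfected with the wild-type plasmid) and SIRT5F101L (cells transfected with the plasmid for that SIRT5 mutant). SIRT5 is a sirtuin found largely in mitochondria, where it takes acyl groups such as malonyl off lysine residues. The labels give the genotype as wild type in all 12 and do not say what the Control cells received, so transfection itself and the plasmids' product cannot be told apart in comparisons with Control. They name no batch, animal or culture, so p-values measure only the spread between these libraries, which may be technical. Libraries held 15095357 to 24242139 counts. CPM are read counts scaled to a common library size, here with the TMM correction for library composition. Before that correction 1 count was worth 0.0413 to 0.0662 CPM.

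Sirt5 itself had only 1 to 19 counts in any library and passed the test in no comparison. The edgeR adjusted p was 0.143 for WT and 0.954 for SIRT5F101L against Control, and 0.459 between the plasmid groups. In WT the log2 fold change against Control was -0.86 (95% interval -1.89 to 0.16), so the estimate was lower and the interval holds only a small rise. In SIRT5F101L it was 0.03 (-0.90 to 0.97), which leaves a rise of up to 0.97 undecided. Whether a plasmid's transcript would be counted on this gene was not tested. SIRT5F101L replicate 1 stood apart from its group on the second principal component (20.3, against -23.5 to -17.0 in the others and -1.07 to 20.1 in WT). WT replicate 1 was at -1.07, away from 12.5 to 20.1 in the other WT libraries, and its counts differed from SIRT5F101L replicates 2 to 4 by 4.01 to 4.75 times sampling noise, from WT replicates 2 and 3 by 3.79 and 3.63 and from WT replicate 4 by 5.8. The counts of SIRT5F101L replicate 1 differed from the rest of its group by 8.2 to 8.92 times sampling noise, but from WT replicates 2, 3 and 4 by 3.41, 3.98 and 2.61 times and from WT replicate 1 by 6.27, so it was closer to each WT library than to any of its own group. Both libraries are called by their labels here, and values between the plasmid groups are given with and without them.

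The labelled cell type was set against its markers. Col2a1, the main cartilage collagen, had 6719 ± 691 CPM (SD, n = 4) in Control, 1665 ± 56.2 in WT and 1312 ± 95.2 in SIRT5F101L. Of the other chondrocyte markers, Comp (2044 CPM in Control) and Col11a1 (1426) were also abundant, and some were scarce, such as Matn1 (2.15 CPM in Control), Snorc (2.77) and Col9a2 (8.30), and Cnmd went from 110.9 CPM in Control to 2.55 in WT and 2.67 in SIRT5F101L. The fibroblast collagen Col1a1 was above Col2a1 per exon length in each group, with 1935, 564 and 519 CPM per kb against 727, 180 and 142. The summed level of 14 chondrocyte markers was 9340 to 11700 CPM in Control, 2860 to 2970 in WT and 2320 to 2570 in SIRT5F101L, with none at 0. Of the 14, 12 were lower in each plasmid group, where 28.1% (WT) and 30.7% (SIRT5F101L) of all tested genes were lower. Hapln1 was higher in both groups (log2 fold changes 0.25 and 0.18). Acan was higher in WT (0.47) and did not pass the test in SIRT5F101L (0.10). For 10 fibroblast or synovial markers the sums were 31100 to 37300, 11300 to 13000 and 11400 to 12800 CPM in the same order, again with none at 0. Of 9 tested, 7 were lower, while Pdgfra (0.39 and 0.62) and Prg4 (0.41 and 0.54) were higher in each group. The sums of 10 macrophage or leukocyte markers were 186 to 220, 133 to 153 and 142 to 182 CPM, with Itgam at 0. Of 9 tested, 8 were lower, while Cd14 was higher in each group (2.05 and 2.27). The sums of 8 osteoblast markers were 1890 to 2070, 13300 to 16500 and 14500 to 16800 CPM, nearly all of it Spp1 (1937 ± 80.3 CPM in Control, 14550 ± 1403 in WT and 15440 ± 1061 in SIRT5F101L). Of the 6 tested osteoblast markers Spp1 alone was higher in each plasmid group and 3 were lower: Ibsp (log2 fold changes -5.64 and -6.50), Sp7 (-1.68 and -1.53) and Bglap2 (-1.94 and -1.66). The part of these shifts in the results below was not tested, and in bulk samples fewer cells of a type cannot be told apart from less RNA per cell.

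Against Control, most of the 10 genes changed, in both directions. In WT, 9 of the 10 genes passed the test: 6 were higher (all 4 ligands, Sfrp1 and Axin2) and 3 were lower (Sfrp2, Dkk3 and Wif1). In SIRT5F101L, 8 passed: the same 3 lower, and 5 higher, with Wnt10b short of the threshold. Frzb passed in neither. The calls are those of edgeR's quasi-likelihood test at a Benjamini-Hochberg adjusted p under 0.05 over all tested genes. By that rule 56.8% of all tested genes differed in WT (28.7% higher and 28.1% lower) and 60.7% in SIRT5F101L (30% higher and 30.7% lower), so most genes of any kind were called. At least 2-fold lower and called were 3 of the 10 genes in each group, against 7.56% and 7.67% of all tested genes, and 2 (Wnt5b and Wnt9a) were at least 2-fold higher, against 9.1% and 9.84% (either way 5, against 16.7% and 17.5%). Among the genes higher in SIRT5F101L, only Wnt9a stayed past 2-fold without SIRT5F101L replicate 1, Control replicate 2 or Control replicate 3, or with upper-quartile scaling. Wnt5b then had log2 fold changes of 0.93, 0.98, 0.96 and 0.98. The 3 lower genes stayed past 2-fold in each of these fits. WT did not overlap Control in 9 of the 10, nor SIRT5F101L in 7, where 53.5% and 51.3% of all tested genes showed no overlap. The median log2 fold change of the 10 was 0.47 in WT and 0.49 in SIRT5F101L, beside -0.01 and -0.02 over all genes. Both comparisons use the same Control libraries, so their likeness is not independent evidence. Without SIRT5F101L replicate 1 the same 8 genes were called in that group, with log2 fold changes of 0.53 for Wnt5a, 0.93 for Wnt5b, 1.29 for Wnt9a, 0.71 for Axin2, 0.61 for Sfrp1, -3.52 for Sfrp2, -3.16 for Dkk3 and -2.74 for Wif1.

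**Figure D1:**
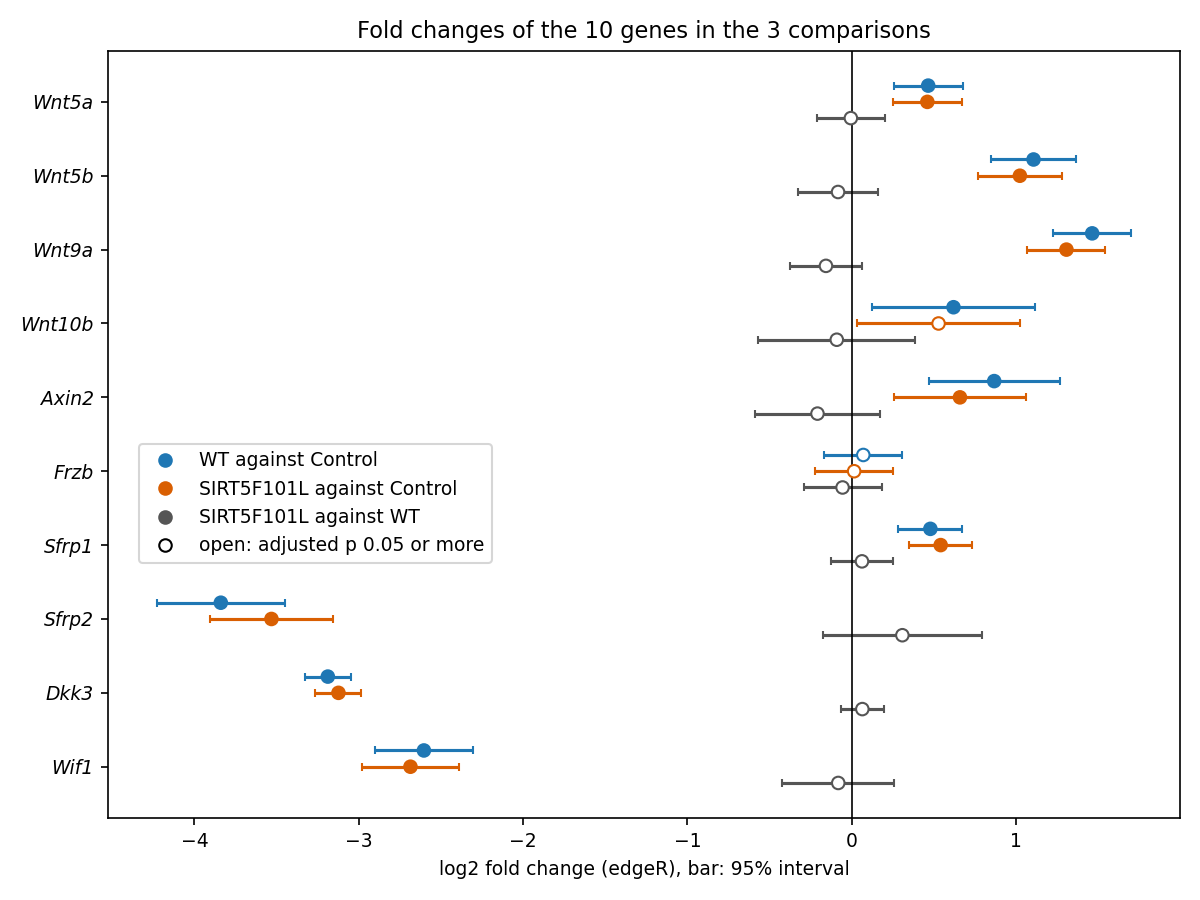
Log2 fold changes (edgeR; bars are 95% intervals) of the 10 genes in the 3 comparisons, with open symbols where the adjusted p missed the threshold. Sfrp2, Dkk3 and Wif1 lie between -3.84 and -2.60 against Control, the ligands, Axin2 and Sfrp1 between 0.46 and 1.46, and the comparison of the plasmid groups runs from -0.21 (Axin2) to 0.31 (Sfrp2), with an interval that holds 0 for each of the 10.

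Among these 4 ligands, Wnt9a had the highest fold change. WNT9A is known for its part in forming synovial joints. It stood at 5.75, 4.66, 6.45 and 6.67 CPM in Control replicates 1 to 4, at 18.1, 15.8, 15.7 and 15.2 in WT, and at 14.97, 14.1, 14.6 and 14.5 in SIRT5F101L. Every plasmid library lay above every Control library, and every SIRT5F101L library lay below every WT library. The rise was 2.76-fold in WT (log2 fold change 1.46, standard error 0.11, edgeR adjusted p 8.5e-10) and 2.47-fold in SIRT5F101L (1.31, standard error 0.11, edgeR adjusted p 4.85e-09).

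Wnt5b, a close relative of Wnt5a that is known to regulate chondrocyte proliferation and maturation, also rose about 2-fold. Its Control values were 9.76, 7.91, 7.51 and 9.12 CPM. In WT it had 21.1, 15.6, 17.9 and 19.0 CPM, and in SIRT5F101L 20.9, 16.6, 17.1 and 15.1. No plasmid library overlapped the Controls, while SIRT5F101L replicate 1 was the highest of its group and lay inside the WT range. The fold change was 2.15 in WT (log2 1.11, standard error 0.12, edgeR adjusted p 1.99e-07) and 2.03 in SIRT5F101L (log2 1.02, standard error 0.12, edgeR adjusted p 5.56e-07).

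Wnt5a, the standard ligand of beta-catenin-independent signalling, rose less. Control libraries held 20.5, 17.6, 19.0 and 23.8 CPM, WT libraries 29.6, 27.7, 29.1 and 25.2, and SIRT5F101L libraries 23.6, 29.1, 30.2 and 28.3. WT and Control did not overlap, whereas SIRT5F101L replicate 1 fell just under the highest Control. Against Control the log2 fold changes were 0.47 in WT (standard error 0.10, edgeR adjusted p 0.00054) and 0.46 in SIRT5F101L (standard error 0.10, edgeR adjusted p 0.00053). Within each library, the length-scaled ratio of Wnt5b to Wnt5a was 1.26 ± 0.129 (SD, n = 4) in Control, 1.95 ± 0.262 in WT and 1.88 ± 0.489 in SIRT5F101L, a quantity that scaling between libraries does not touch.

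Wnt10b, a ligand known to favour bone formation, was the scarcest of the 4 ligands per exon length, with 23 to 65 counts per library. Its levels were 2.50, 1.67, 1.23 and 2.35 CPM in Control, 2.96, 2.95, 3.24 and 2.73 in WT, and 2.62, 2.79, 2.13 and 3.68 in SIRT5F101L. The WT libraries all exceeded the Controls, and the SIRT5F101L libraries overlapped them. It passed in WT (log2 fold change 0.62, standard error 0.24, edgeR adjusted p 0.0321) and missed in SIRT5F101L (0.53, standard error 0.24, edgeR adjusted p 0.0619). These calls rested on single libraries. The call in WT was lost without Control replicate 2 (0.55, edgeR adjusted p 0.082) or 3 (0.45, 0.116), or without WT replicate 1 (0.62, 0.0552), 2 (0.62, 0.0546) or 3 (0.58, 0.0751). In SIRT5F101L a call was gained without Control replicate 1 (0.67, edgeR adjusted p 0.0331) or 4 (0.63, 0.0461), without SIRT5F101L replicate 3 (0.65, 0.0327), and with DESeq2 (0.54, adjusted p 0.0482).

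**Figure D2:**
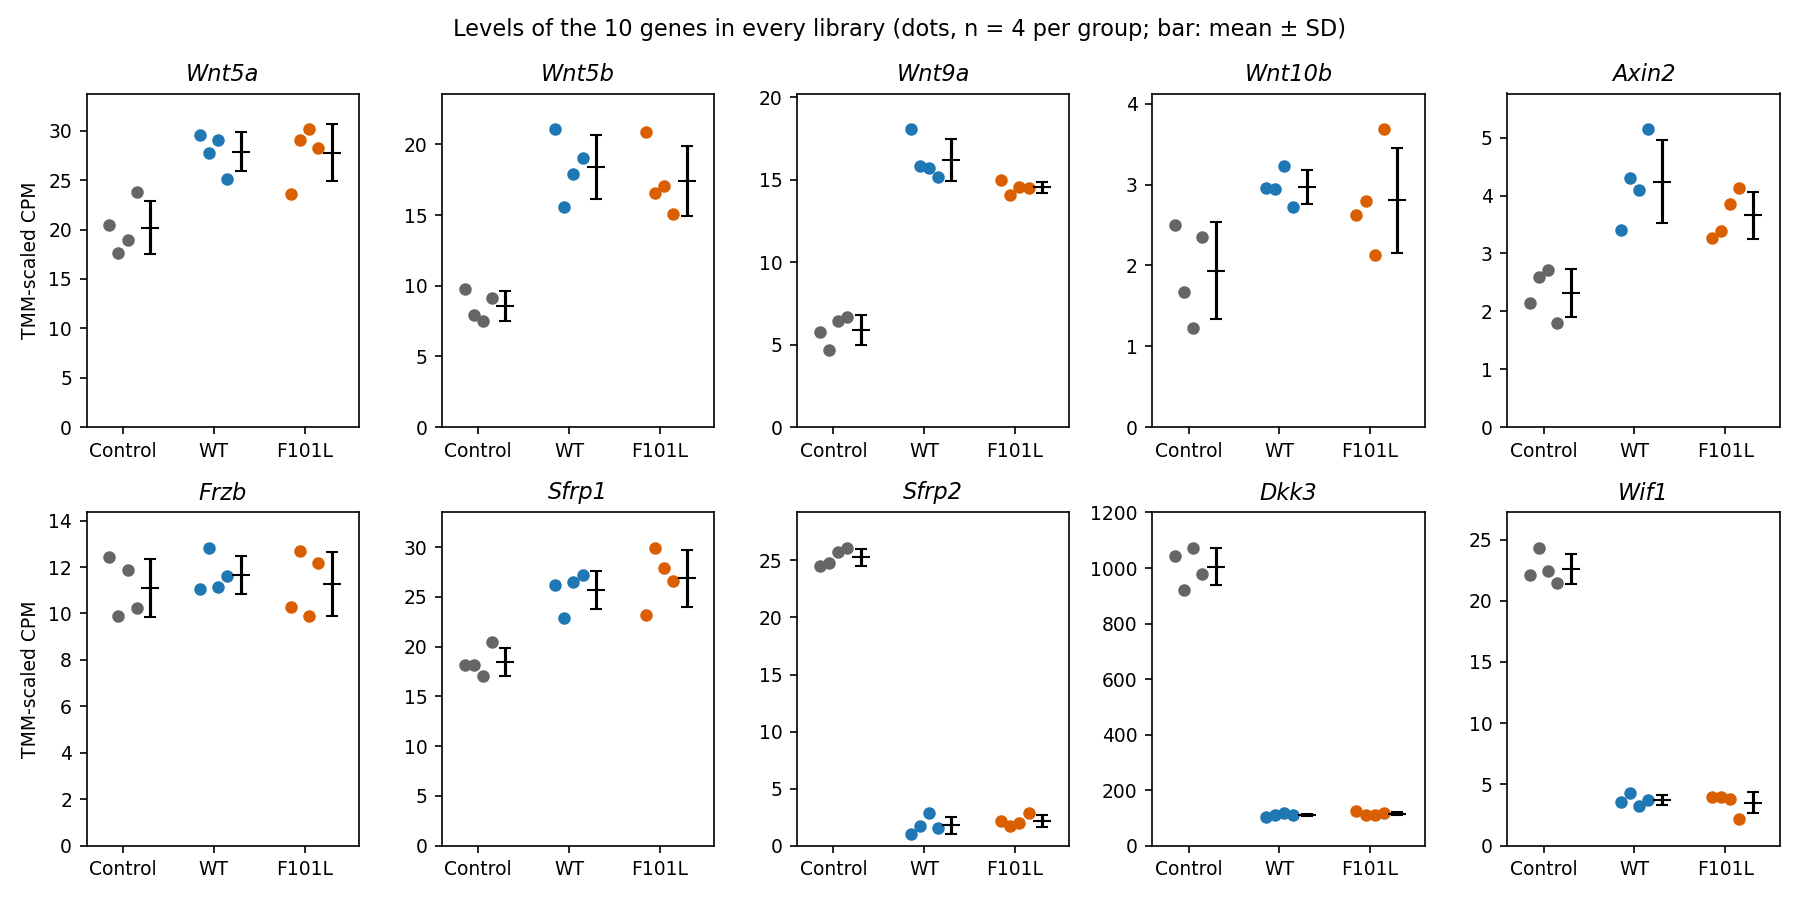
TMM-scaled CPM of each gene in the 12 libraries (dots; bar, mean ± SD of 4 libraries), on axes that start at 0. Sfrp2, Dkk3 and Wif1 drop to a low level in all 8 plasmid libraries, Wnt5b, Wnt9a and Axin2 lie above Control in all 8, and the Frzb ranges of the 3 groups overlap.

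Axin2, whose product scaffolds the beta-catenin destruction complex and whose transcription beta-catenin drives, was low and rose in both groups. It had 2.15, 2.59, 2.72 and 1.80 CPM in Control, 3.41, 4.30, 4.10 and 5.14 in WT, and 3.26, 3.38, 3.85 and 4.14 in SIRT5F101L. All 8 plasmid libraries exceeded all 4 Controls. The log2 fold change was 0.87 in WT (standard error 0.19, edgeR adjusted p 0.000641) and 0.66 in SIRT5F101L (standard error 0.19, edgeR adjusted p 0.00585). With 33 to 100 counts per library, its 95% intervals are wide: 0.47 to 1.27 and 0.26 to 1.06 on the log2 scale.

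Dkk3, a divergent member of the dickkopf family of secreted glycoproteins, was by far the most abundant of the 10, also per exon length. Control libraries held 1045, 922, 1073 and 979 CPM, WT libraries 105, 110, 117 and 109, and SIRT5F101L libraries 123, 110, 111 and 117. The groups were separated by a wide gap, with 922 CPM as the lowest Control value and 123 as the highest with a plasmid. The fall was 9.12-fold in WT (log2 fold change -3.19, standard error 0.07, edgeR adjusted p 1.31e-18) and 8.72-fold in SIRT5F101L (-3.12, standard error 0.07, edgeR adjusted p 1.55e-18). Only 0.674% and 0.716% of tested genes had a more negative fold change.

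Sfrp2, a secreted frizzled-related protein, fell further in proportion. Its counts were 422, 489, 483 and 478 in Control, 21, 27, 49 and 30 in WT, and 40, 26, 50 and 51 in SIRT5F101L. In CPM these are 24.5, 24.8, 25.7 and 26.1, then 1.04, 1.73, 2.83 and 1.54, then 2.14, 1.69, 2.01 and 2.89. The Control libraries were tightly grouped, and the plasmid libraries all lay far below them. Its level was 14.3-fold lower in WT (log2 fold change -3.84, standard error 0.19, edgeR adjusted p 4.86e-13) and 11.6-fold lower in SIRT5F101L (-3.53, standard error 0.18, edgeR adjusted p 9.29e-13). In GENCODE M21, 16.1% of its exon sequence overlaps Gm26771, which had 0 to 5 counts in any library, so part of its counts may be unassigned or shared.

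Wif1, which encodes Wnt inhibitory factor and is known as a cartilage-expressed antagonist, went from 22.1, 24.3, 22.4 and 21.5 CPM in Control to 3.60, 4.30, 3.24 and 3.76 in WT and 3.96, 3.96, 3.85 and 2.21 in SIRT5F101L. All plasmid libraries were below all Controls, and SIRT5F101L replicate 4 was the lowest. The fall was 6.08-fold in WT (log2 fold change -2.60, standard error 0.14, edgeR adjusted p 3.32e-12) and 6.43-fold in SIRT5F101L (-2.69, standard error 0.14, edgeR adjusted p 1.93e-12).

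Sfrp1 and Frzb, relatives of Sfrp2 in sequence family and in binding Wnt proteins, did not fall. Sfrp1 held 18.2, 18.2, 17.0 and 20.4 CPM in Control, 26.3, 22.8, 26.5 and 27.2 in WT, and 23.2, 30.0, 27.9 and 26.6 in SIRT5F101L. No plasmid library overlapped a Control, and the log2 fold change was 0.48 in WT (standard error 0.09, edgeR adjusted p 0.000188) and 0.54 in SIRT5F101L (standard error 0.09, edgeR adjusted p 4.38e-05). The length-scaled ratio of Sfrp2 to Sfrp1 within a library went from 2.79 ± 0.197 (SD, n = 4) in Control to 0.142 ± 0.0585 in WT and 0.167 ± 0.0466 in SIRT5F101L.

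Frzb, also called SFRP3, showed no change that passed the test. Control libraries had 12.4, 9.89, 11.9 and 10.2 CPM, WT libraries 11.1, 12.8, 11.2 and 11.6, and SIRT5F101L libraries 10.3, 12.7, 9.91 and 12.2. The ranges of the 3 groups overlapped. Its log2 fold change was 0.07 in WT (standard error 0.11, edgeR adjusted p 0.62) with a 95% interval of -0.17 to 0.31, and 0.01 in SIRT5F101L (standard error 0.11, edgeR adjusted p 0.921) with an interval of -0.22 to 0.25. The direction in SIRT5F101L turned with upper-quartile scaling (-0.03).

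To compare levels between genes, CPM was divided by the exon length of each gene in GENCODE M21 (CPM per kb). In Control the antagonists led: Dkk3 at 299 ± 20.1 CPM per kb (SD, n = 4), Sfrp2 at 11.7 ± 0.351, Wif1 at 9.31 ± 0.507, Sfrp1 at 4.22 ± 0.324 and Frzb at 3.43 ± 0.384. The ligands followed, with Wnt5b at 3.23 ± 0.394, Wnt5a at 2.58 ± 0.339, Wnt9a at 1.77 ± 0.270 and Wnt10b at 0.569 ± 0.175, and Axin2 was last at 0.420 ± 0.0759. The ranges of Frzb and Wnt5b, of Wnt5b and Wnt5a, and of Wnt10b and Axin2 overlapped, so those neighbours have no order.

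With a plasmid, Dkk3 still led, at 32.8 ± 1.45 CPM per kb in WT and 34.3 ± 1.83 in SIRT5F101L. Next came Wnt5b (6.93 ± 0.861 and 6.56 ± 0.935) and Sfrp1 (5.88 ± 0.447 and 6.15 ± 0.653), whose ranges overlapped in both groups. Sfrp2, the second in Control, was among the lowest of the 10 with a plasmid: 0.83 ± 0.351 CPM per kb in WT, where its range overlapped those of Wnt10b and Axin2, and 1.01 ± 0.237 in SIRT5F101L, where it overlapped Wif1 and Wnt10b. Wnt9a stood at 4.87 ± 0.383 and 4.37 ± 0.107, overlapping Sfrp1 in WT but no neighbour in SIRT5F101L.

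**Figure D3:**
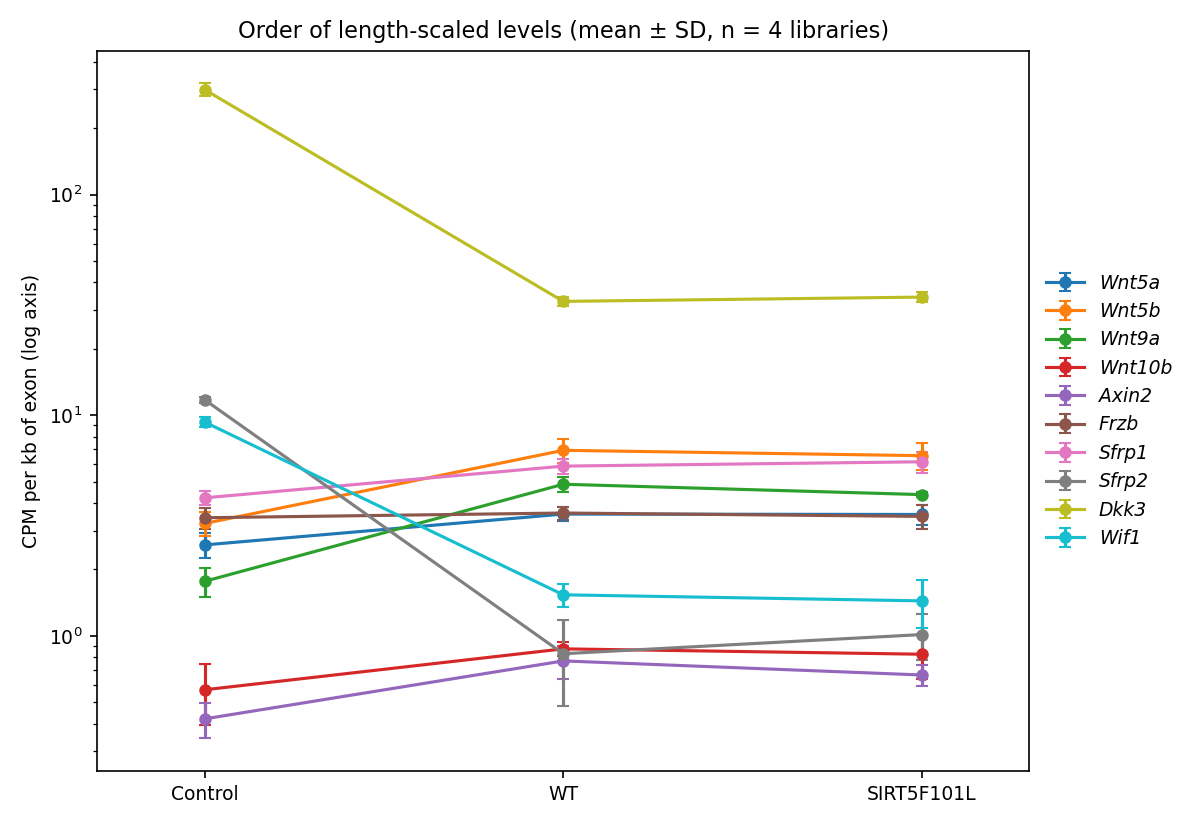
Length-scaled level (CPM per kb of exon, log axis) of each gene in the 3 groups, as mean ± SD of 4 libraries. Dkk3 stays highest, Sfrp2 and Wif1 cross below the ligands Wnt5a, Wnt5b and Wnt9a in both plasmid groups, and Frzb runs level.

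Summed over genes, the 4 ligands came to 8.15 ± 0.971 CPM per kb in Control, 16.2 ± 1.27 in WT and 15.3 ± 0.614 in SIRT5F101L (SD, n = 4). The 5 secreted regulators came to 328 ± 20.1, 44.7 ± 1.75 and 46.4 ± 1.19, most of it Dkk3. Without Dkk3 the other 4 regulators came to 28.7 ± 0.135, 11.8 ± 0.352 and 12.1 ± 0.859. The groups of plasmid libraries lay outside the Control range for each of these sums, which are descriptions with no test.

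Whether the SIRT5 mutant and the wild-type plasmid differ in these genes was read from the direct comparison. None of the 10 passed by edgeR's quasi-likelihood test, and none had an unadjusted p under 0.05. Over all genes 0.0421% were called by edgeR, and 11.9% had an unadjusted p under 0.05. DESeq2 also called 0 of the 10, with no adjusted p for Wnt10b and Axin2, and 44 of 14253 genes in all. The intervals limit a difference without showing that the groups are alike: for Dkk3 the log2 fold change of SIRT5F101L against WT was 0.06 with a 95% interval of -0.07 to 0.20, for Wnt5a -0.01 with -0.21 to 0.20, and for Frzb -0.06 with -0.29 to 0.18. Wider intervals held for Sfrp2 (0.31, from -0.18 to 0.79), Wnt10b (-0.09, from -0.57 to 0.39) and Axin2 (-0.21, from -0.59 to 0.17).

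Wnt9a was the 1 gene of the 10 whose plasmid groups did not overlap, lower in SIRT5F101L, as were 2.03% of all tested genes. Its log2 fold change was -0.16 (standard error 0.10, edgeR adjusted p 0.538). Leaving out SIRT5F101L replicate 1 raised the number of called genes in this comparison from 6 to 2213 (15.2% of those tested), and leaving out any other single plasmid library lowered it to 0. None of the 10 genes was called in any of these fits. Without SIRT5F101L replicate 1 the values were 0.07 for Wnt5a, -0.18 for Wnt5b, -0.17 for Wnt9a, 0.32 for Sfrp2 and -0.15 for Axin2, with edgeR adjusted p of 0.69, 0.291, 0.343, 0.403 and 0.674. The other 5 genes were at -0.06 (Wnt10b), -0.02 (Frzb), 0.13 (Sfrp1), 0.03 (Dkk3) and -0.14 (Wif1), with edgeR adjusted p of 0.908, 0.953, 0.367, 0.786 and 0.653. Without WT replicate 1 the 10 values ran from -0.30 (Axin2, edgeR adjusted p 0.448) to 0.10 (Sfrp2, 0.86), with Wnt9a at -0.10 (0.703), Wnt5b at -0.01 (0.975) and Wnt5a at 0.02 (0.937). The other 5 were at -0.09 (Wnt10b, edgeR adjusted p 0.899), -0.08 (Frzb, 0.79), 0.07 (Sfrp1, 0.763), 0.04 (Dkk3, 0.819) and -0.10 (Wif1, 0.833).

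The start-site regions of 7 of the 10 genes were in the RefSeq table used here (build GRCm38.p6, which differs from the GRCm39 build listed by the submitters and is used for sequence only). Wnt5a, Sfrp1 and Dkk3 were not matched. The 250 bases before each start are shown for the 2 ligands with the highest fold changes (Wnt9a and Wnt5b), for the feedback gene Axin2, and for Sfrp2 and Wif1, which fell, so that genes of both directions can be read side by side. Capitals mark matches, on either strand, to the TCF/LEF core CTTTG, to the AP-1 motif TGANTCA or to the NF-kappaB consensus.
Wnt9a, chr11:59306680-59306929, plus strand: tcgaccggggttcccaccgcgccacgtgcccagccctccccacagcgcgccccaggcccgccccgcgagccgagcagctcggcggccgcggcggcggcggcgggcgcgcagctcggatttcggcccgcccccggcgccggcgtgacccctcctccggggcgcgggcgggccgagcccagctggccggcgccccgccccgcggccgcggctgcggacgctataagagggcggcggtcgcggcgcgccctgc
Wnt5b, chr6:119544348-119544597, minus strand: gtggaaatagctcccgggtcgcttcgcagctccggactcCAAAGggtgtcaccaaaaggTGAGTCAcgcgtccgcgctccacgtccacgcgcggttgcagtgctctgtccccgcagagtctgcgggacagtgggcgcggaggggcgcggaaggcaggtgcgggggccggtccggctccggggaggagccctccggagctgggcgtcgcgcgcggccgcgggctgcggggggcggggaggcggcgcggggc
Axin2, chr11:108920099-108920348, plus strand: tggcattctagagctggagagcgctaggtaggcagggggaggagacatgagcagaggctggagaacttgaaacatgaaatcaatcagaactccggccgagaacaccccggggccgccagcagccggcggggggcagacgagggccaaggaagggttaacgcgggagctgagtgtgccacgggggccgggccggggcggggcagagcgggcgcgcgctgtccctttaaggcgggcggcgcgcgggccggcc
Sfrp2, chr3:83766071-83766320, plus strand: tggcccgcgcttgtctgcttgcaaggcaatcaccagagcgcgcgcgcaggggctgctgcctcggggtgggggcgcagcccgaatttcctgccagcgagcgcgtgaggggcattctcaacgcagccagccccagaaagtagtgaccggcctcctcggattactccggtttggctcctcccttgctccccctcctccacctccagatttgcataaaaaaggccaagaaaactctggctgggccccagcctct
Wif1, chr10:121033754-121034003, plus strand: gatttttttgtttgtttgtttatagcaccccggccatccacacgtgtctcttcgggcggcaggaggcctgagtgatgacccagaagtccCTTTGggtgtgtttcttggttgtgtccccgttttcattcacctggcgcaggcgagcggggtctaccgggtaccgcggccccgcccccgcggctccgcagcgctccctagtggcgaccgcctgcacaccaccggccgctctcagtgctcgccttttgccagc

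The Wnt5b window, 1 of 3 annotated starts, held a match to CTTTG and a match to TGANTCA. It is the window of Wnt5b with the AP-1 match: of its other 2 windows, 1 held no match and 1 held 2 CTTTG matches. The Wif1 window held a CTTTG match alone, and the windows of Wnt9a, Sfrp2 and Axin2 held none of the 3 motifs. A CTTTG match occurs in 48.6% of 32851 windows of this length, a TGANTCA match in 6.75% and an NF-kappaB match in 7.25%. Among the 9 windows of the 7 genes the counts were 4, 1 and 1, the NF-kappaB window being that of Wnt10b, with 2 matches. CTTTG is also the core of SOX sites, and a match is a string of letters, not a bound site.

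The rest of the pathway was read from 6 lists with 126 genes, 97 of which were tested. In WT 71 of the 97 passed (29 higher, 42 lower) and in SIRT5F101L 79 (34 higher, 45 lower), against the 56.8% and 60.7% of all genes given above. All 10 genes followed here passed the filter on low counts both in Control and in the plasmid libraries, as did 92 of the 97. Of those 92, 68 were called in WT and 76 in SIRT5F101L. The other 3 called genes, Wnt7a, Dkkl1 and Draxin, passed it only through the side where they are high, so their calls carry no weight. Without SIRT5F101L replicate 1 the count in that group was 79 of 98, where 9179 of 14528 genes were called in all. Of the 126 genes, 8 were listed at 0 in every library. Of these, 6 are X-linked (Porcn, which modifies Wnt proteins for secretion, with Ndp, Gpc3, Gpc4, Amer1 and Prickle3), and all 2414 IDs of the X chromosome were listed at 0, so those genes cannot be assessed.

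Other ligands moved both ways. Of 15, 6 were tested. In WT 3 were higher and 1 lower, and in SIRT5F101L 4 were higher and 1 lower. The shares called were 66.7% and 83.3%, against 56.8% and 60.7% of all tested genes. Leaving aside Wnt7a, 5 were tested, with 2 higher in WT and 3 in SIRT5F101L. Wnt11, which acts mainly through beta-catenin-independent signalling, rose from 5.92 ± 0.869 CPM (SD, n = 4) to 25.6 ± 1.10 in WT and 22.5 ± 4.73 in SIRT5F101L (log2 fold changes 2.11 and 1.92, edgeR adjusted p 3.86e-11 and 1.66e-10), beside 1.46 and 1.31 for Wnt9a. Wnt10a rose by 0.60 and 0.85 on the log2 scale, and Wnt2b by 0.73 in SIRT5F101L. Wnt16, a ligand produced in joint tissue and bone, fell from 15.1 ± 2.35 to 1.34 ± 0.336 and 1.59 ± 0.214 CPM (-3.49 and -3.24). Wnt7a, named after its values were seen, had 0 to 3 counts in Control, 14 to 22 in WT and 8 to 25 in SIRT5F101L.

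Of 9 tested genes among the other secreted regulators, 7 were lower in each group (77.8%, against 28.1% of all tested genes in WT and 30.7% in SIRT5F101L) and 2 higher. The list goes beyond its name, since Wls and Apcdd1 are membrane proteins, so 5 of the 7 lower genes are secreted. Leaving aside Draxin and Dkkl1, 6 of 7 were lower. The medians were -0.61 in WT and -0.55 in SIRT5F101L. Dkk2, an LRP6-binding regulator, fell by 2.85 and 2.70 on the log2 scale, and Draxin, which can also bind LRP6, had values of -3.61 and -3.72. Apcdd1, a membrane-bound Wnt inhibitor, fell by 0.32 and 0.33. Tinagl1 rose (0.92 and 0.60). Dkkl1, named after its values were seen, had 3 to 16 counts in Control, 12 to 21 in WT and 14 to 31 in SIRT5F101L. Rspo2, an R-spondin that strengthens Wnt signalling and was also named after its values were seen, fell from 381 ± 13.4 CPM to 93.4 ± 3.69 in WT (log2 fold changes -2.03 and, in SIRT5F101L, -1.91). Rspo3, another R-spondin (-0.61 and -0.36), and Wls, needed for Wnt secretion (-0.59 and -0.55), were lower too, so that 3 of the 7 lower genes are known to act for Wnt signalling.

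Most tested receptors were lower. Of 27 receptors and co-receptors 22 were tested. In WT 15 were lower, 5 higher and 2 not called, and in SIRT5F101L 15 were lower and 7 higher. The share lower was 68.2% in each group, against 28.1% and 30.7% of all tested genes. Fzd9 (-2.72 and -3.07) and Lgr5, an R-spondin receptor (-3.05 and -3.36), fell most. Lgr6, the related R-spondin receptor, rose from 12.2 ± 1.29 to 113 ± 5.81 and 101.2 ± 6.26 CPM (3.21 and 3.06, edgeR adjusted p 1.54e-17 and 2.95e-17). Lrp5 rose by 0.64 and 0.70, while its relative Lrp6 was lower, at -0.62 and -0.51. Fzd7, Kremen1 and Fzd1 were the other 3 higher in WT, at 0.33, 0.23 and 0.23. Ror2 and Ryk, which encode receptors used by WNT5A, gave log2 fold changes of 0.23 (edgeR adjusted p 0.0876) and 0.41 (edgeR adjusted p 0.0041) for Ror2, and -0.41 and -0.37 for Ryk, both called. Ror1 was lower in both groups, at -1.25 (edgeR adjusted p 2.41e-05) and -0.85 (edgeR adjusted p 0.000794).

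**Figure D4:**
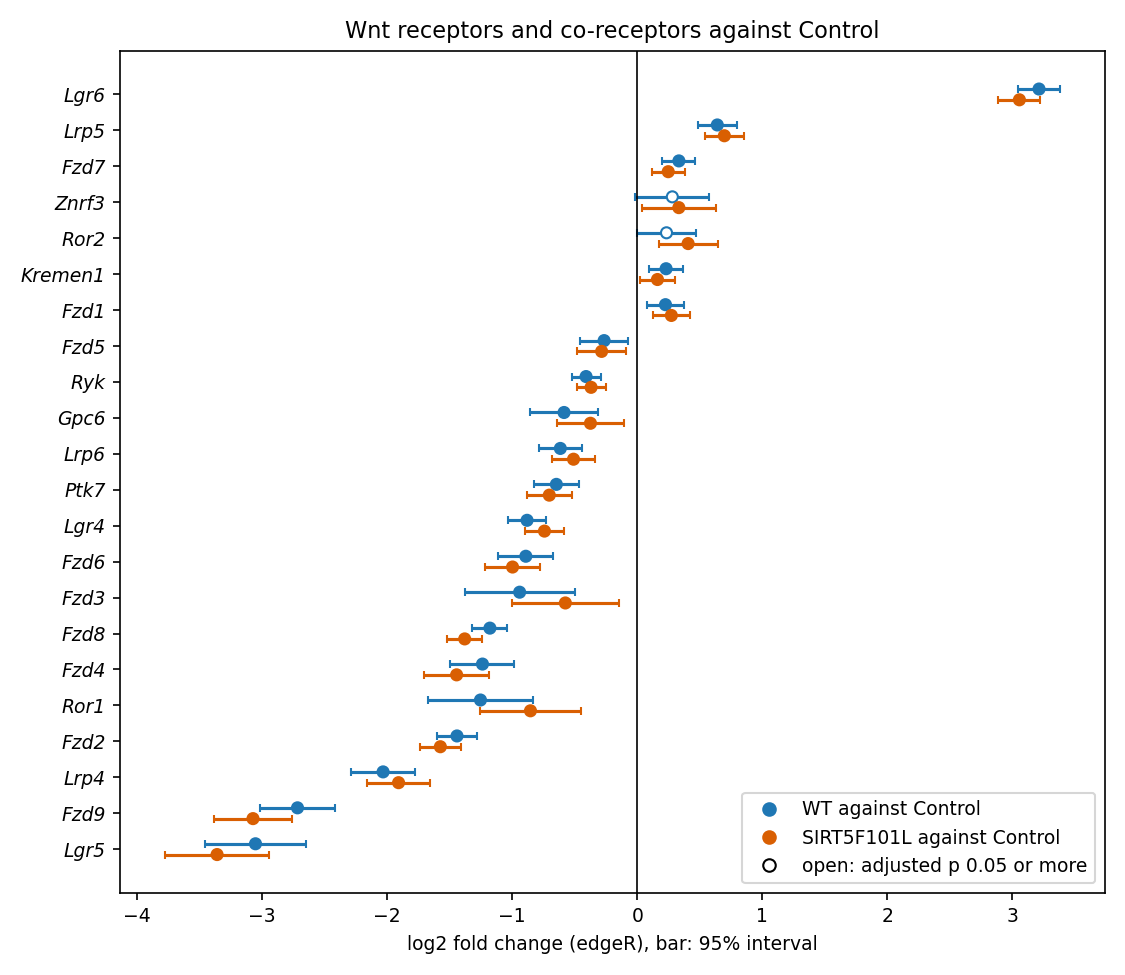
Log2 fold changes against Control (edgeR; bars, 95% intervals) of the 22 tested receptors and co-receptors in WT and SIRT5F101L, ordered by the value in WT. Lgr6 stands alone on the right near 3, Lgr5 and Fzd9 lie near -3, and 15 receptors lie left of 0 in both groups.

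The intracellular genes of the beta-catenin pathway had medians near 0. Of 28 tested genes 15 were called in WT (6 higher, 9 lower) and 19 in SIRT5F101L (7 higher, 12 lower), with medians of -0.09 and -0.10. The shares called, 53.6% and 67.9%, are near the 56.8% and 60.7% of all tested genes. Pygo1, a nuclear cofactor of beta-catenin, fell by 2.16 and 1.80 on the log2 scale, Lef1 by 1.21 and 1.31, and Tcf7l1 by 0.84 and 0.62. Apc, part of the destruction complex that holds AXIN proteins, rose by 0.45 and 0.64, Tle1 by 0.46 and 0.44, and Chd8 by 0.44 and 0.77.

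Beta-catenin target genes moved both ways. Of 14 tested, 5 were higher and 7 lower in WT, and 6 were higher and 7 lower in SIRT5F101L (85.7% and 92.9% called, against 56.8% and 60.7% of all tested genes). Nkd2 (2.69 and 2.81), Fosl1 (1.89 and 1.81), Cd44 (1.82 and 1.86), Ccnd1 (1.0 and 1.05) and Myc (0.90 and 0.83) rose. The last 4 answer to many other signals. Nkd1, a feedback inhibitor like Axin2, fell from 13.3 ± 2.08 CPM to 1.35 ± 0.215 and 0.837 ± 0.351 (-3.30 and -4.05), and Lgr5 and Lef1 (-1.21 and -1.31) fell too. Znrf3 was higher in SIRT5F101L and not called in WT. Axin2, which is not on this list, rose too, by 0.87 and 0.66.

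Of 22 tested planar polarity and non-canonical genes 8 were higher and 5 lower in WT, and 9 were higher and 5 lower in SIRT5F101L. The shares called, 59.1% and 63.6%, are near those of all tested genes. Celsr3, a polarity cadherin, rose by 1.89 and 1.84 and Nfatc1, a calcium-responsive transcription factor, by 1.55 and 1.60. Camk2b (-2.15 and -1.70) and Fuz (-1.27 and -1.23) fell, as did Vangl2 (-0.69 and -0.83), Daam2 (-0.66 and -0.76) and Camk2a (-0.69 and -0.83). Between the plasmid groups 0 of the 97 tested pathway genes were called by edgeR, with 16 at an unadjusted p under 0.05, where 0.0421% of all tested genes were called and 11.9% had such a p. DESeq2 called 1 of the 97, and 44 of 14253 genes in all. A filter of 1 count gave 3 of 118, and 354 of 25722 in all. Without WT replicate 1 the count was 0 of 100, where 0 of 14467 genes were called in all. Without SIRT5F101L replicate 1 the count was 20 of 98, where 15.2% of all genes were called. Tinagl1 had the lowest of these 20 fold changes (-0.38) and Chd8 the highest (0.46), both picked after their values were seen.

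**Figure D5:**
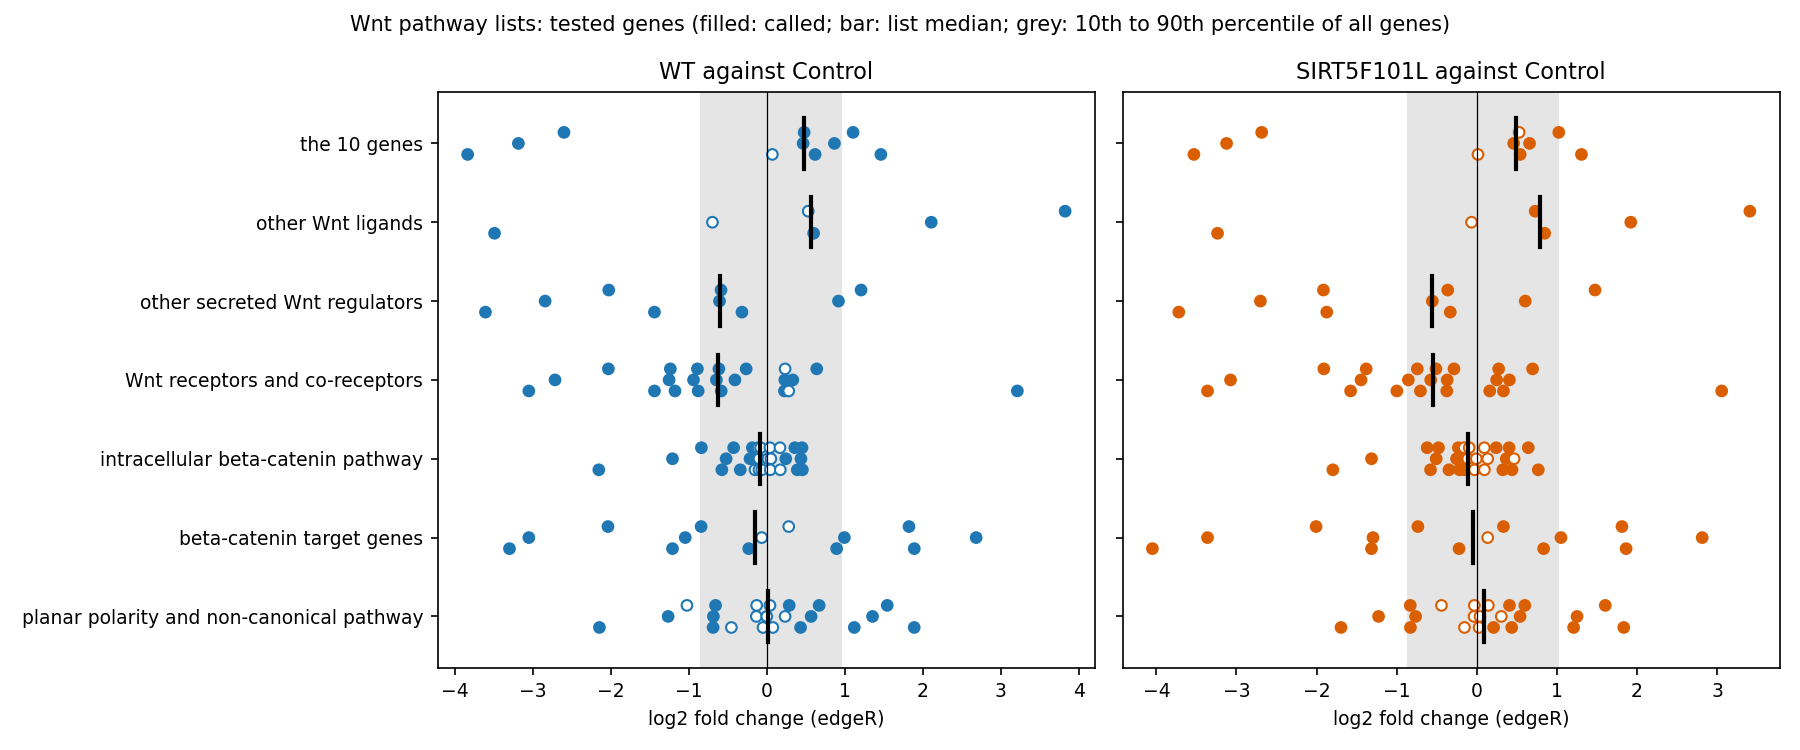
Log2 fold changes against Control of the tested genes of the 10 followed here and of the 6 pathway lists (filled, called; open, not called), with the list median as a bar and the 10th to 90th percentile of all genes in grey. The medians of the receptors and of the other secreted regulators lie near -0.6, those of the intracellular genes and target genes near 0.

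Genes whose pattern over the 12 libraries was most like that of Wnt5a, Frzb and Axin2 were found by the root mean square difference of log2 CPM, each gene centred on its own mean, taking those that average 5 CPM or more. For Wnt5a they were Pitpnm2, Lamc1 and Fyco1, at 0.06, 0.07 and 0.07. For Frzb, whose pattern is nearly flat, they were Fam53c, Wrap73 and Taf1a, at 0.09 each. Axin2 had no match as close, with Dtwd1, Chaf1b and Dusp28 at 0.15, 0.16 and 0.16. These values are descriptions.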

How the data were processed

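RNA of 12 libraries was poly(A)-selected and sequenced as 150 bp read pairs, per the labels' protocols. Each deposited file, without a header, pairs Ensembl gene IDs with raw read counts, which are whole numbers. FastQC 0.11.9, HISAT2 2.2.1, HTSeq 2.0.2 and DESeq2 1.38.3 and the builds GRCm39 and mm39 are named in the submitters' processing notes; the annotation release and strand setting are not given in the sources used here. Of 57010 IDs, 52029 matched a symbol. No pair of libraries was identical; within groups, counts differed by 2.55 to 8.92 times sampling noise, the highest values being those of SIRT5F101L replicate 1.

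Counts were fitted with edgeR 4.0.16 (R 4.3.3): TMM, the default filter by group, and a quasi-likelihood test on all 12 libraries with a mean per group. The standard error is the fold change divided by the square root of F, and 95% intervals use the test's total degrees of freedom. Fold changes are of SIRT5F101L or WT over Control, or SIRT5F101L over WT. Every comparison is 2-sided, with DESeq2 1.42.0 as an alternative. Log2 CPM used a prior count of 2. On simulated counts with 200 changed genes, a change of 1 on the log2 scale was recovered in 92.9% (WT vs Control), 92% (SIRT5F101L vs Control) and 91% (SIRT5F101L vs WT) of tested genes. A change of 0.5 was recovered in 65%, 62.6% and 73%. The simulation gave every gene the same spread and changed few genes, none of them scarce. These shares therefore check the fit and do not measure what the real comparisons could detect. Total counts were 15095357 to 24242139 per library, which limits genes with few counts such as Wnt10b, Axin2 and, with a plasmid, Sfrp2; without molecular identifiers, counts are not independent molecules.

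The 10 genes and the 6 pathway lists were chosen with earlier results of these data known. Named are the 10 genes; from each list the 2 highest and 2 lowest called fold changes against Control with a mean of at least 1 CPM; the 3 nearest genes to Wnt5a, Frzb and Axin2; and Sirt5. Genes named outside this rule (Lrp6, Ror1, Ror2, Ryk, Lef1, Wnt7a, Dkkl1, Rspo2, Rspo3, Wls, Sfrp4, Znrf3, genes listed at 0, markers, and the members of counts of 5 or fewer) were chosen after their values were seen. Exon lengths and overlaps came from GENCODE M21 (GRCm38). BLAST 2.17.0 searched transcripts of other genes for matches of at least 95% identity over 100 bases. These covered 17.8% of Sfrp2, 4.86% of Axin2 and none of the other 8. Overlapping genes were not left out of the search. The matches (356 and 207 bases) are about as long as the exon overlaps with Gm26771 (347) and Gm11670 (209), so they may be the same bases. Marker lists for endothelial, adipocyte and muscle cells summed to 6.74 to 7.56, 203 to 227 and 7.43 to 8.87 CPM in Control, 7.25 to 9.81, 86.5 to 92.5 and 2.25 to 4.27 in WT, and 8.06 to 9.98, 87.1 to 106 and 1.76 to 3.64 in SIRT5F101L.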

Additional observations from a re-analysis of the deposited data

Results flagged for a closer look

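Each group of 4 libraries was screened for a value far from the other 3, by the gap to its nearest neighbour over the range of the group. Of 108 groups (the 10 genes, the named pathway genes and Sirt5) 10 were marked, where chance gives about 5.4. Among the 30 groups of the 10 genes there was 1, against 1.5 by chance: Wif1 was at 2.21 CPM in SIRT5F101L replicate 4, with 3.85 to 3.96 in the others.

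SIRT5F101L replicate 1 held 3 of the 10 values. It had 29.5 CPM of Wnt11 (19.1 to 20.8 in the others), 270 of Tinagl1 (224 to 226) and 139 of Nfatc1 (169 to 171). SIRT5F101L replicate 3 was low in Wnt2b at 1.44 CPM (2.08 to 2.15), SIRT5F101L replicate 2 was low in Tle1 at 81.9 CPM (83.3 to 83.5) and high in Sirt5 at 1.24 CPM (0.481 to 0.602). WT replicate 2 was low in Nkd2 at 22.6 CPM (25.9 to 26.5), WT replicate 4 in Fosl1 at 27.6 CPM (31.0 to 31.3) and Control replicate 2 in Celsr3 at 1.42 CPM (1.74 to 1.80).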

How the results depend on the processing

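Over 18 alternatives (6 settings and 12 fits without 1 library each), each of the 10 genes was fitted again in each comparison it belonged to, 420 values in all, of which 397 kept their direction and their side of the threshold. The calls of Wnt10b, given with its levels, made up the 9 changes of call. Another 14 values turned in direction, each with an adjusted p of 0.69 or more. Wnt5a between the plasmid groups was 0.0002 with RLE scaling, 0.0003 with upper-quartile scaling and 0.0001 with DESeq2, and -0.053 to 0.0676 without single libraries. Frzb in SIRT5F101L against Control was -0.0294 with upper-quartile scaling and -0.0445 to 0.076 without single libraries. Between the plasmid groups and without single libraries, Frzb ran from -0.1158 to 0.0046, Wnt10b from -0.2512 to 0.0326 and Wif1 from -0.1419 to 0.0767. The number of the 10 genes called was 8 to 9 in WT and 8 to 9 in SIRT5F101L against Control, and 0 between the plasmid groups, over these alternatives. The number of all genes called between the plasmid groups was 354 with a filter of 1 count, 2 with the 8 libraries compared, 44 with DESeq2, and 0 to 2213 without single libraries; the cause was not tested. Of all genes 7549 to 8502 were called in WT and 8030 to 9179 in SIRT5F101L against Control. For Axin2 and Wnt10b between the plasmid groups DESeq2 gave no adjusted p. No paired analysis was possible because the replicate numbers were given here in accession order and the labels tie no library of one group to a library of another. Low counts limit the precision for Wnt10b (23 to 65 per library), Axin2 (33 to 100) and, in the plasmid libraries, Sfrp2 (21 to 51).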
